A study of Mus musculus with 69 samples.

Results

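The 8 genes described here are Epcam, Rab25, Ap1m2, Lsr, Tmc4, Leng1, Capn8 and Map7, out of 55964 gene IDs in the deposited tables. They were listed by name as epithelial genes that were lowered in the pituitary of mice whose Zeb1 gene no longer answers to the microRNAs miR-200a and miR-200b. Their pituitary values are therefore the values that chose them and are given as a description, without a test. Their values in hypothalamus and ovary were not part of the choice and were tested. The label "most strongly lowered" held in both cohorts for 6 of them, Capn8, Rab25, Ap1m2, Epcam, Tmc4 and Lsr. It did not hold for Map7 or, in the older cohort, for Leng1.

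Zeb1 is a transcription repressor that binds short E-box letters in the promoters of epithelial genes, and the miR-200 family lowers Zeb1 in turn. Epithelial cells hold each other by adhesion molecules and junctions and send their membrane proteins to separate apical and basolateral faces. The hormone-secreting cells of the anterior pituitary are of epithelial origin. In this set Epcam is a surface adhesion glycoprotein, Lsr (angulin-1) marks the corners where 3 epithelial cells meet, Ap1m2 is the epithelial medium subunit of the AP-1 clathrin adaptor that sorts proteins to the basolateral face, and Rab25 is an epithelial GTPase of the Rab11 recycling family. Capn8 is a calcium-dependent protease known from stomach epithelium, Tmc4 belongs to the transmembrane channel-like family, and Map7 is a microtubule-associated protein that recruits the motor kinesin-1. Leng1 is named for its place in the leukocyte receptor cluster.

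RNA-seq libraries came from pituitary, hypothalamus and ovary of female C57BL/6J mice in proestrus, in 18 groups of 3 or 4 mice by cohort, tissue and genotype, 69 libraries in all. WT mice carried the normal Zeb1 gene, Zeb1_200H mice (200H) carried 1 and Zeb1_200M mice (200M) 2 alleles with point mutations in the predicted miR-200a/b sites of the 3′ UTR. The mutation is a germline knock-in, so that every tissue carries it, and both cohorts were bred from a pair of independently targeted ES-cell clones, which the labels do not tell apart. The young cohort consisted of virgins at 8 to 12 weeks of age. The older cohort was 28 to 36 weeks old and had been mated in a fertility trial beforehand. The study reports that most females with both alleles mutated bore no litter in that trial, and fewer litters than the other genotypes. Pregnancy history can thus differ along with genotype in the older cohort, and its part in the older results was not tested. The cohorts also differed in library kit, strandedness and read layout, so no cohort was tested against the other. The 200M and 200H comparisons in a tissue and cohort share the same WT libraries.

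Total counts per library ranged from 3321845 to 14655095, with the lowest depths in young hypothalamus (3321845 to 5143128). Levels are given as CPM, read counts scaled to the size of the library, with TMM factors within a tissue and cohort, and a count of 3 or fewer in a library is treated as its floor. Zeb1 itself rose in 200M pituitary by 0.52 log2 units (SE 0.06, adjusted p = 2.39e-05, edgeR) in the young and by 0.55 (SE 0.09, adjusted p = 0.000833) in the older cohort, and was not called in hypothalamus or ovary. In every group each defining marker of the labelled tissue was above 3 counts in at least 1 library. Of 10 hormone-cell markers 4 were lowered and 1 raised in young and 3 lowered and 1 raised in older 200M pituitary, with median log2 fold changes of −0.16 and 0.03. Their sum, which weights the most abundant hormones most, came to 78940 ± 10250 CPM (SD, n = 4) against 171600 ± 12010 CPM (n = 3) in WT of the young cohort, and to 186500 ± 22440 (n = 3) against 312700 ± 18220 CPM (n = 4) in the older cohort. The 7 markers of stem and folliculostellate cells summed to 126 to 155 CPM in young WT and 121 to 138 in young 200M pituitary, and to 183 to 198 in older WT and 145 to 176 in older 200M pituitary. Krt8 and Krt18 are among those 7 and are themselves epithelial genes that fell. The 4 pituicyte markers of the posterior lobe summed to 122 to 138 CPM in young WT, 157 to 166 in 200H and 158 to 182 in 200M, and to 71.6 to 75.3, 68.6 to 97.9 and 92.5 to 126 CPM in the older cohort. The 8 hypothalamus markers summed in pituitary to 14.6 to 39.5 CPM in young WT, 40.8 to 149.6 in 200H and 54.3 to 98.5 in 200M, and to 82.0 to 254 CPM, 264 to 735 and 327 to 414 CPM in the older cohort. In bulk tissue fewer cells of a type and less RNA per cell cannot be told apart, and the part of cell makeup in the results below was not tested.

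The promoters of the members are shown because Zeb1 binds E-boxes with the letters CAGGTA or CAGGTG. Both were searched on either strand, so that CACCTG and TACCTG count as their reverse complements, in windows of 300 bases (250 before and 50 after the RefSeq start; all 8 members matched). In the stretches below, from RefSeq on GRCm38.p6 and written 5′ to 3′ on the strand of the gene, capitals mark the E-box letters. Positions are counted from the RefSeq start, with −1 the base before it. The stretches of Epcam, Rab25, Ap1m2, Tmc4 and Capn8 end at −1 and that of Lsr at −60. Map7 is shown as 30 bases around each of its E-boxes, the first ending at −75 and the second spanning the start.
Epcam, chr17:87635779-87635978, plus strand: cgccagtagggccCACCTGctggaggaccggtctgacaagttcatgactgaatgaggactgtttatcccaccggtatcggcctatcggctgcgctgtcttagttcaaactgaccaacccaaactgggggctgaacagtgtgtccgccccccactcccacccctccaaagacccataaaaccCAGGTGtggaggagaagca
Rab25, chr3:88548280-88548399, minus strand: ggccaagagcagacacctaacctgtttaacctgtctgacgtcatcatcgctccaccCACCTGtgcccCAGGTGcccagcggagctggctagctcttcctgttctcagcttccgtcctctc
Ap1m2, chr9:21312334-21312453, minus strand: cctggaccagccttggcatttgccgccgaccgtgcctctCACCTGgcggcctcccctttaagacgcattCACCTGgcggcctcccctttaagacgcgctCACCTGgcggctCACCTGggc
Lsr, chr7:30973529-30973719, minus strand: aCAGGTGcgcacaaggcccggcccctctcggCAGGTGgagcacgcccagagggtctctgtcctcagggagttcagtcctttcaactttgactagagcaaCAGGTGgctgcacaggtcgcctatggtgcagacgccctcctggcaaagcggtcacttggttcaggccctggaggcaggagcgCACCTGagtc
Tmc4, chr7:3677554-3677673, minus strand: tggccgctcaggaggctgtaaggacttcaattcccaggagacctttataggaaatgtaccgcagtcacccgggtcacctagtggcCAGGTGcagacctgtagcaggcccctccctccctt
Capn8, chr1:182564887-182565006, plus strand: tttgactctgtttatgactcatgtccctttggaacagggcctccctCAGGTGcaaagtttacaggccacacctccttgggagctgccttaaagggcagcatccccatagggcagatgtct
Map7, chr10:20148816-20148845, plus strand: cctgcgacgccgCACCTGcccgccaggggg
Map7, chr10:20148903-20148932, plus strand: caggccgccgctCACCTGtctgggccgcgg

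At least 1 E-box lay in the windows of 7 of the 8 members, against 29.5% of 32851 promoter windows. At least 2 lay in those of 5 members (5.81% of windows), and at least 4 in those of Ap1m2 and Lsr (0.186% of windows). In the 250 bases before the start alone, at least 2 lay in 4 members (4.22% of windows). In Ap1m2 all 4 were CACCTG within the last 81 bases before the start, 3 of them spaced at 30 bases (positions −81, −51 and −21) and the last at −9. In Lsr 4 preceded the start, at −249, −219, −151 and −69, and a TACCTG followed it at 25. In Rab25 a CACCTG at −64 and a CAGGTG at −53 lay 11 bases apart. Epcam had 1 at −187 and 1 at −19, and Map7 1 at −92 and 1 at −5. The GENCODE M21 annotation begins Map7 at chr10:20148471, upstream of the RefSeq start at chr10:20148920, so both its E-boxes lie inside the annotated gene. Tmc4 had 1 at −35 and Capn8 1 at −74, while the window of Leng1 held none. A match of 6 letters is a description of the sequence and not a measured binding site.

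In the pituitary every library of either mutant genotype lay below every WT library for all 8 members in both cohorts. Over all genes tested that pattern held for 13.3% (young 200M), 10.3% (young 200H), 15.8% (older 200M) and 8.04% (older 200H), but the members were chosen for it. Their median log2 fold change over WT was −3.07 and −2.33 in young 200M and 200H and −3.23 and −2.70 in older 200M and 200H, where the median of all genes tested lay between −0.01 and 0.01. Ranked from the most lowered gene, Capn8 was at 3, Rab25 at 7, Ap1m2 at 17, Epcam at 18, Tmc4 at 38, Lsr at 40, Leng1 at 95 and Map7 at 1249 of 18199 genes in young 200M. In older 200M the ranks were 2 for Capn8, 12 for Rab25, 17 for Ap1m2, 18 for Epcam, 26 for Lsr and 37 for Tmc4, but 1161 for Leng1 and 1416 for Map7 of 14711 genes. Tmc4 kept 14.5% of the WT mean in older 200M, and Leng1 68.2%.

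**Figure D1:**
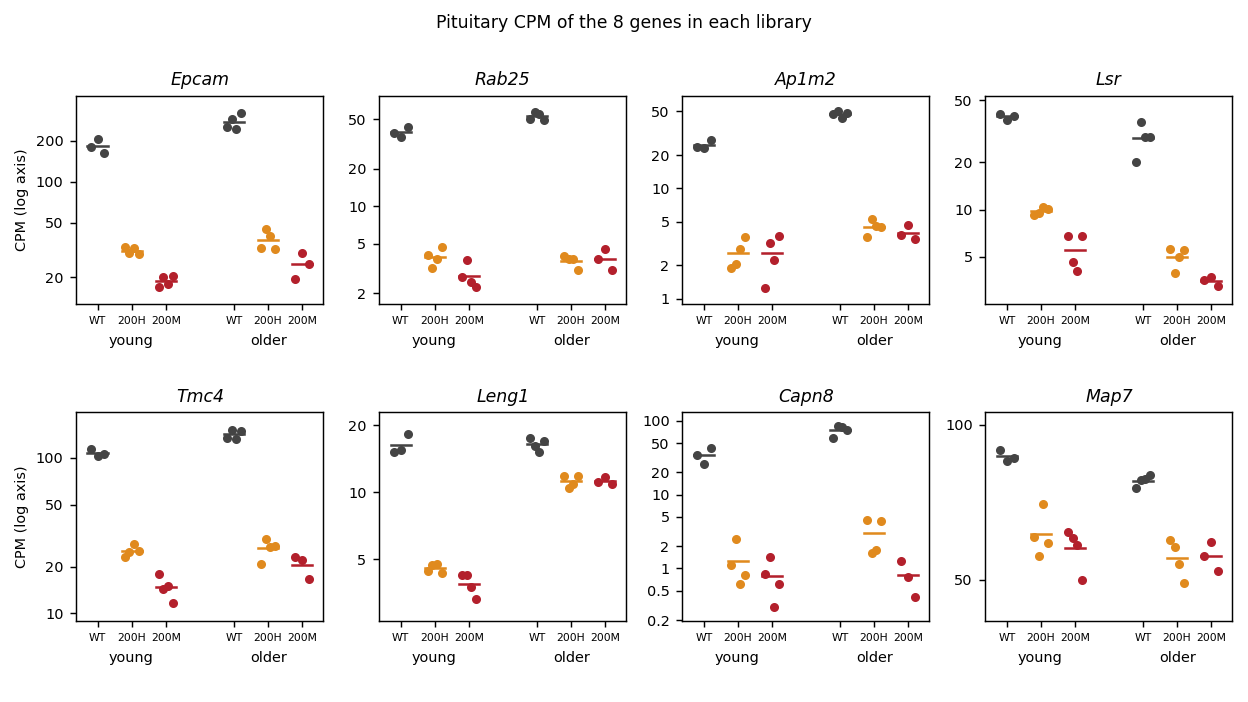
CPM (log axis) of each of the 8 genes in every pituitary library, by genotype (WT grey, 200H orange, 200M red) and cohort, with the group mean as a line. All mutant libraries lie below all WT libraries in each panel, by a wide margin in 6 genes, and by a small one for Map7 (66.3% and 71.4% of the WT mean left in 200M) and for older Leng1 (68.2%).

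Among the sorting and recycling genes, Rab25 was at 39.1, 36.3 and 43.4 CPM in the young WT pituitaries and at 2.72, 3.66, 2.47 and 2.22 CPM in the young 200M pituitaries. The 200H libraries lay between 3.18 and 4.66 CPM and thus overlapped those of 200M. The log2 fold change over WT was −3.83 (SE 0.14) in 200M and −3.35 (SE 0.14) in 200H. Older Rab25 was at 50.1, 57.4, 54.8 and 49.8 CPM in WT and at 3.77, 4.52 and 3.07 CPM in 200M, with 200H at 3.07 to 3.96 CPM. The older log2 fold changes were −3.76 (SE 0.14) in 200M and −3.87 (SE 0.12) in 200H, so that a single mutant allele left 6.85% and 2 mutant alleles 7.14% of the WT mean.

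Ap1m2 stood at 23.6, 23.1 and 27.6 CPM in young WT and at 1.24, 3.16, 2.25 and 3.70 CPM in young 200M pituitary. The 4 young 200H libraries were at 1.91, 2.06, 2.83 and 3.62 CPM, within the 200M range, and both genotypes kept 10.5% of the WT mean. Older WT libraries held 47.5, 50.1, 43.2 and 48.6 CPM and 200M libraries 3.77, 4.65 and 3.48 CPM. The fold change was 9.95-fold in young and 11.6-fold in older 200M (log2 −3.31, SE 0.22, and −3.54, SE 0.14).

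Of the adhesion and junction genes, Epcam had the highest level in WT pituitary, at 180.1, 205 and 163 CPM in the young and 254, 288, 244 and 323 CPM in the older cohort. Its RNA kept 10.3% of the WT mean in young and 8.98% in older 200M pituitary, against 17.1% and 13.6% in 200H. All 4 young 200M libraries (17.0, 20.1, 17.8 and 20.4 CPM) lay below all 4 of 200H (33.0, 30.1, 32.6 and 29.4 CPM). In the older cohort the 200M libraries were at 19.5, 30.3 and 25.0 CPM and those of 200H at 32.6, 45.4, 40.4 and 32.4 CPM, again without overlap. Epcam stood at log2 fold changes over WT of −3.29 in young and −3.45 in older 200M, and of −2.56 and −2.88 in 200H.

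Lsr was at 40.9, 37.4 and 39.8 CPM in young WT, at 9.30, 9.53, 10.4 and 10.0 CPM in young 200H and at 6.75, 4.66, 4.05 and 6.79 CPM in young 200M pituitary. The 3 genotypes did not overlap. The older WT libraries were more spread, at 20.2, 36.4, 29.2 and 29.0 CPM, with 200H at 5.58, 3.95, 4.95 and 5.51 CPM and 200M at 3.56, 3.74 and 3.27 CPM. The log2 fold change in 200M was −2.85 (SE 0.15) in the young and −3.00 (SE 0.22) in the older cohort. The antisense gene Gm4673 covers 946 bases, or 43.55%, of the Lsr exons. It stood at 16.8 CPM in WT and 17.6 CPM in 200M of the stranded young cohort (log2 fold change 0.06, SE 0.11, adjusted p = 0.746, edgeR), and at 15.5 and 6.72 CPM in the unstranded older cohort (−1.21, SE 0.21, adjusted p = 0.00206), where reads from either strand cannot be told apart.

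Capn8 had the largest fold change of the 8. Young WT libraries were at 34.6, 25.8 and 42.4 CPM, and young 200M libraries at 0.854, 1.42, 0.2998 and 0.617 CPM. Older WT libraries held 58.8, 85.3, 83.9 and 74.1 CPM and 200M 1.26, 0.774 and 0.409 CPM. The 3 older 200M libraries rest on 14 counts in all (6, 6 and 2), so the summed counts give a 94.7-fold lower level with a counting interval from 56.3 to 173 at the 95% level. In young 200M the corresponding value was 43.1-fold lower (31 to 61.5), from 37 counts. The 200H libraries ran from 0.607 to 2.49 CPM in the young and from 1.60 to 4.54 CPM in the older cohort.

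Tmc4 and Leng1 lie next to each other on the minus strand of chromosome 7 (GRCm38), Tmc4 at chr7:3665790-3677553 and Leng1 at chr7:3660098-3665840, and share 51 exonic bases. Tmc4 was at 114, 103 and 105 CPM in young WT and at 17.9, 14.4, 14.9 and 11.7 CPM in young 200M pituitary, with older WT at 135, 150, 132 and 150 CPM and older 200M at 23.0, 22.2 and 16.6 CPM. In 200H it lay at 22.9 to 27.7 CPM in the young and at 20.7 to 30.3 CPM in the older cohort, where the genotypes overlapped. Leng1 went from 15.1, 15.4 and 18.2 CPM in young WT to 4.27, 4.25, 3.75 and 3.33 CPM in young 200M. Older Leng1 went from 17.5, 16.1, 15.2 and 17.0 CPM to 11.1, 11.7 and 10.8 CPM.
Leng1 thus kept 24% of the WT mean in young and 68.2% in older 200M, while Tmc4 kept 13.7% and 14.5%. Leng1 counts amounted to 15.2% ± 2.01 (SD, n = 3) of Tmc4 counts in young WT and 26.7% ± 2.68 (n = 4) in young 200M, and to 11.6% ± 0.980 (n = 4) and 55.5% ± 8.91 (n = 3) in the older cohort. The exons of Leng1 also share 433 bases, 19.49% of their length, with Cnot3 on the opposite strand, which stood at 88.2 CPM in young and 74.5 CPM in older WT. The part of reads from Cnot3 or Tmc4 in the Leng1 counts was not tested.

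Map7 changed least. It was at 89.1, 85.0 and 86.2 CPM in young WT and at 61.9, 60.3, 58.2 and 49.9 CPM in young 200M pituitary, a 1.51-fold difference (log2 −0.60, SE 0.07). Older WT libraries were at 75.3, 78.1, 78.3 and 79.8 CPM and older 200M libraries at 55.7, 59.1 and 52.0 CPM (1.39-fold). The 200H libraries lay at 55.5 to 70.0 CPM in the young and 49.3 to 59.7 CPM in the older cohort. When libraries were scaled by total counts alone, the median of all genes stood at 0.12 to 0.16 log2 units in the 4 pituitary comparisons with WT, against −0.01 to 0.01 with TMM, and the log2 fold change of Map7 in older 200M was then −0.30 and that of Leng1 −0.36.

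Between the mutant genotypes some members had every 200M library below every 200H library, and in part these members differed between the cohorts. Overlap of libraries did not sort the members by size of difference. Older Lsr, without overlap, and young Rab25, with overlap, both stood at −0.49 (SE 0.22). In the young cohort every 200M library lay below every 200H library for Epcam (log2 fold change −0.74, SE 0.09), Lsr (−0.83, SE 0.18), Tmc4 (−0.76, SE 0.11) and Leng1 (−0.22, SE 0.17), which are 4 of 7 members tested, beside 1.53% of all genes. In the older cohort this held for Epcam (−0.58, SE 0.16), Lsr (−0.49, SE 0.22) and Capn8 (−1.95, SE 0.52), 3 of 8, beside 4.68% of all genes. For Rab25 and Ap1m2 the libraries of 200H and 200M overlapped in both cohorts, with log2 fold changes from −0.49 (SE 0.22, young Rab25) to 0.09 (SE 0.23, older Rab25). These are values of the same tissue that chose the members and are a description.

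**Figure D2:**
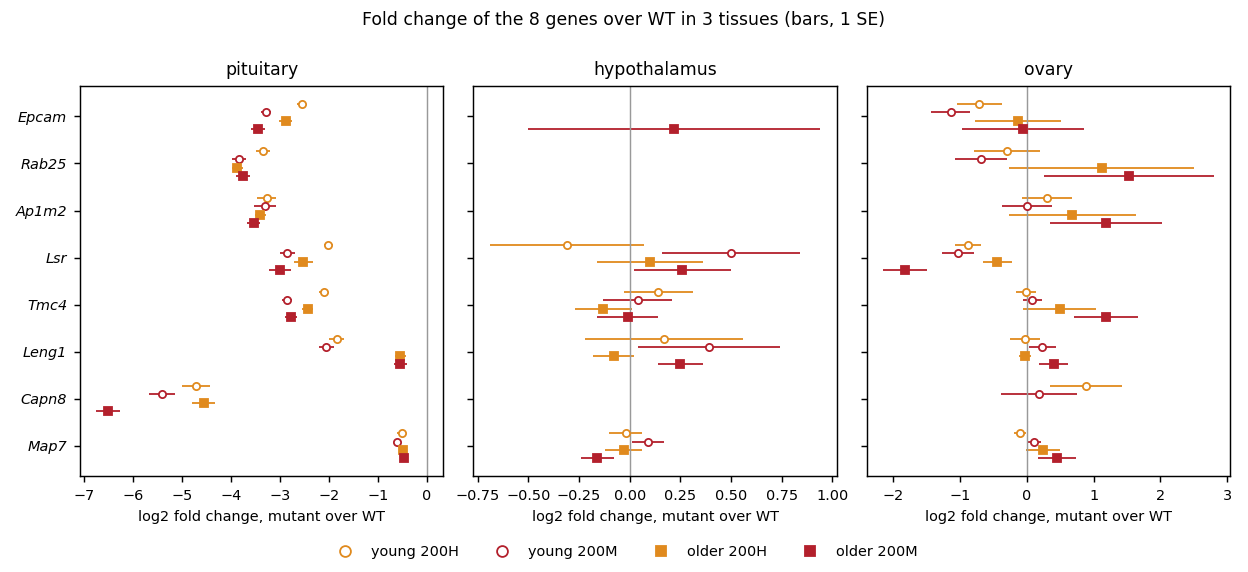
Log2 fold change over WT with 1 SE (x axis; each panel has its own scale) of the 8 genes in pituitary, hypothalamus and ovary, for 200H (orange) and 200M (red), young (open circles) and older (filled squares). All pituitary points lie left of 0, the hypothalamus points lie around 0 or are missing where too few counts were left, and in ovary the Lsr points lie left of 0 in both cohorts.

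In WT tissues the members differed in where they were expressed, on a scale of CPM per kilobase of exon. Epcam led in pituitary with 83.2 ± 9.61 (SD, n = 3) in the young and 126 ± 16.2 (n = 4) CPM per kilobase in the older cohort. It was followed by Tmc4 (25.1 and 33.2) and Rab25 (23.7 and 31.7), which overlapped each other in both cohorts. Leng1 had the lowest mean, at 7.31 and 7.40 CPM per kilobase, but overlapped Ap1m2 (7.89) in the young cohort. In hypothalamus Map7 led in both cohorts, with 12.1 ± 0.263 and 12.2 ± 0.446 CPM per kilobase (n = 4), and Epcam, Rab25, Ap1m2 and Capn8 were at 0.537 CPM per kilobase or less. In ovary Lsr led with 15.1 ± 2.61 in the young and 59.1 ± 17.9 CPM per kilobase in the older cohort (n = 4), ahead of Epcam at 6.71 and 15.7, and Capn8 came last. The exon lengths include bases shared with a gene on the opposite strand, 43.55% of those of Lsr and 19.49% of those of Leng1. In the unstranded older cohort reads there cannot be assigned to a strand, so the scale can differ between the cohorts.

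Young WT ovary and young WT hypothalamus, which did not choose the members, were compared by edgeR's quasi-likelihood test. Of all genes 40.6% were called higher in ovary and 36.1% lower. Of the 4 members measured in every library of both tissues, Lsr was higher in ovary (log2 fold change 3.03, SE 0.22, adjusted p = 3.58e-11) and Map7 was lower (−1.84, SE 0.08, adjusted p = 4.21e-15). Tmc4 (−0.11, SE 0.15, adjusted p = 0.539) and Leng1 (0.59, SE 0.32, adjusted p = 0.099) were not called. Epcam, Rab25 and Ap1m2 passed the filter only through their ovary counts and are given as counts without a test. The 4 hypothalamus libraries held 14 Epcam, 11 Rab25 and 5 Ap1m2 counts in all, against 18 to 41 Ap1m2 counts in each ovary library. With so large a share of all genes called, these calls do not set the members apart.

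In the hypothalamus 4 members were at or near the floor. In the young cohort Epcam had 0 to 8 counts, Rab25 0 to 5, Ap1m2 0 to 5 and Capn8 0 to 5 in the 12 libraries, and none of the 4 was tested. Lsr, Tmc4, Leng1 and Map7 could be tested in each comparison. No member was called in any of the 6 hypothalamus comparisons by edgeR, at adjusted p-values of 0.157 or higher. Of all genes 0.02% (young 200M), 0.0202% (young 200H), 0.00622% (older 200M) and 0% (older 200H) were called against WT, and 0% between 200M and 200H in either cohort. At an unadjusted p under 0.05 there was 1 member each in young 200M against 200H and in both older 200M comparisons and 0 in the other 3. DESeq2 called 0 members, but gave no adjusted p for any of the 5 members tested in the older 200M comparisons. Where a comparison called 0 of all genes, 682 (young 200M against 200H), 445 (older 200H against WT) and 3144 (older 200M against 200H) were under an unadjusted p of 0.05, and DESeq2 called 0, 5 and 637.

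Tmc4 and Map7 were measured well enough in hypothalamus to show narrow ranges. Tmc4 averaged 16.4 ± 2.52, 18.1 ± 2.03 and 16.8 ± 1.95 CPM in young WT, 200H and 200M (SD, n = 4 each) and 18.6 ± 3.34, 17.0 ± 2.39 and 18.5 ± 1.91 CPM in the older cohort (n = 4, 4 and 3). Its log2 fold changes in hypothalamus ran from −0.13 (SE 0.14) to 0.14 (SE 0.17). Map7 averaged 96.3 ± 2.09 in young WT and 103 ± 7.23 CPM in young 200M. In the older cohort it averaged 96.6 ± 3.54 in WT and 86.2 ± 5.13 CPM in 200M, where every 200M library was lower (log2 fold change −0.16, SE 0.08, adjusted p = 0.331; 8.5% of all genes showed that pattern).

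For Leng1 and Lsr the hypothalamus values of some comparisons lay on the other side of 0 from those in pituitary, without a call. Leng1 was at 15.5 ± 0.409 CPM in the 3 older 200M libraries and at 13.1 ± 0.203 CPM in the 4 WT libraries, every 200M library being higher (log2 fold change 0.25, SE 0.11, adjusted p = 0.263; 7.29% of all genes). Against older 200H, at 12.4 ± 0.879 CPM, it stood 0.33 log2 units higher (SE 0.11, adjusted p = 0.157; every library higher, as for 7.79% of all genes). Lsr in young 200M was at 4.58 ± 1.05 CPM, above every 200H library at 2.64 ± 0.263 CPM (log2 fold change 0.81, SE 0.32, adjusted p = 0.95; 1.57% of all genes). Those 200H libraries held 9 to 10 Lsr counts each.

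Epcam counts in older hypothalamus are given beside those of pituitary markers. The 4 WT libraries held 27, 6, 0 and 21 Epcam counts and 15, 2, 0 and 19 counts of Pitx1, a pituitary transcription factor. The 4 200H libraries held 9, 13, 1 and 0 Epcam counts beside 18, 22, 3 and 1 of Pitx1, and the 3 200M libraries 10, 28 and 11 beside 19, 44 and 28. The 3 libraries with 0 or 1 Epcam counts (WT replicate 3 and 200H replicates 3 and 4) held 0, 3 and 1 Pitx1 counts, while WT replicate 2 held 6 of Epcam and 2 of Pitx1. Epcam was not called in the comparisons in which it could be tested, 200M against WT (log2 fold change 0.22, SE 0.72, adjusted p = 0.906, edgeR) and 200M against 200H (1.42, SE 0.71, adjusted p = 0.294). Pitx1 was picked from 7 markers of pituitary tissue after its values were seen. The sum of those 7 did not order the libraries in the same way, since it ran from 2.63 to 18.8 CPM in WT, from 22.3 to 32.9 CPM in 200M and from 7.61 to 68.2 CPM in 200H, and was highest in the 200H library without an Epcam count. Pou1f1 was at 3 counts or fewer in every older hypothalamus library. Prl and Gh, also among the 7, stood at 248 and 400 counts in that 200H library and at 0 in WT replicate 1, which held 27 Epcam counts. Cga, another of the 7, held 120, 0, 0 and 58 counts in older WT and 30, 31, 5 and 5 in older 200H. In older 200M it held 25, 94 and 42 counts. Tshb ranged from 20 to 69 and Lhb from 2 to 26 counts over the older hypothalamus libraries. The part of pituitary tissue in these counts was not tested.

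In the ovary Lsr was the 1 member called in both cohorts. In young WT ovaries Lsr was at 35.4, 24.4, 35.6 and 36.2 CPM and in young 200M ovaries at 12.7, 28.0, 10.97 and 11.4 CPM. Of the 200M libraries 3 were low and replicate 2 overlapped WT. Lsr fell by 1.03 log2 units (SE 0.24, adjusted p = 0.037, edgeR), where 1.7% of all genes were called lowered. Older WT libraries were at 72.7, 131, 155 and 155 CPM and 200M libraries at 33.5, 21.6, 60.3 and 29.7 CPM, without overlap (6.18% of all genes had every library lower). The older log2 fold change was −1.82 (SE 0.33, adjusted p = 0.0277; 1.19% of all genes called lowered).

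Both Lsr calls lay near the threshold, and leaving out any of several libraries ended them. The young call was lost with DESeq2 (adjusted p = 0.0668), with all 3 genotypes in 1 fit (0.089) and in 6 of 8 fits that left out 1 library, which gave adjusted p-values from 1.66e-05 to 0.137. The older call was lost in 6 of 8 such fits (0.012 to 0.0894) and held with DESeq2 (6.26e-06). The log2 fold change stayed between −1.47 and −0.90 in the young and between −2.17 and −1.65 in the older cohort in these fits. The libraries whose removal ended the young call were WT replicates 1, 3 and 4 and 200M replicates 1, 3 and 4, and those that ended the older call were WT replicates 2, 3 and 4 and 200M replicates 1, 2 and 4.

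In 200H ovaries Lsr was called in neither cohort by edgeR. Young 200H libraries were at 12.2, 21.97, 13.6 and 21.0 CPM, all below WT (log2 fold change −0.88, SE 0.20, adjusted p = 0.269; 2.86% of all genes had every library lower). DESeq2 (adjusted p = 0.00228) and the fit without a filter (adjusted p = 4.51e-07) called it. The young 200M libraries spanned those of 200H (−0.16, SE 0.30, adjusted p = 0.999). Older 200H libraries were at 98.6, 106, 81.4 and 87.0 CPM and overlapped WT (−0.44, SE 0.21, adjusted p = 0.748). Every older 200M library was below every older 200H library (−1.38, SE 0.28, adjusted p = 0.0504; 4.6% of all genes). That last value became a call without 200M replicate 3 (−1.73, adjusted p = 0.00398), with DESeq2 (adjusted p = 0.000138), without the filter (0.0294) and with 3 genotypes in 1 fit (0.035).

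No other member was called in an ovary comparison by edgeR. Of all genes 0.0051% were called in young 200H against WT, 0% in older 200H against WT, 0% in young 200M against 200H and 1.61% in older 200M against 200H. For the comparisons with 0% the count at an unadjusted p under 0.05 was 1160 in older 200H against WT and 648 in young 200M against 200H, and DESeq2 called 21 and 0 genes. In those 4 comparisons the members under an unadjusted p of 0.05 numbered 1, 0, 0 and 1 (Lsr in each case), and DESeq2 called 1, 0, 0 and 1. Of all genes DESeq2 called 76, 21, 0 and 877 in them.

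Apart from Lsr, Epcam had the lowest adjusted p of the members against WT in young 200M ovary. The young WT ovaries held 16.3, 11.5, 12.3 and 18.8 CPM and the young 200M ovaries 8.19, 9.86, 5.84 and 2.53 CPM. Every 200M library was lower, as for 4.09% of all genes, and Epcam stood 1.14 log2 units below WT by edgeR (−1.14, SE 0.29, adjusted p = 0.0532). DESeq2 called it (adjusted p = 0.00402), and over the fits with 1 library left out the adjusted p ran from 0.00826 to 0.17. In 200H the libraries were at 3.04, 11.6, 12.9 and 7.03 CPM and overlapped WT (−0.71, SE 0.34, adjusted p = 0.73). In older 200M ovary Epcam was at −0.06 against WT (SE 0.91, adjusted p = 0.979), and at −2.04 (adjusted p = 0.0866) without 200M replicate 3.

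Several members were highest in the ovary libraries with the most oviduct epithelium markers, in each genotype. The 4 markers (Ovgp1, Foxj1, Pax8 and Wnt7a) summed to 696 CPM in older WT replicate 1, 3086 CPM in 200H replicate 4 and 3215 CPM in 200M replicate 3. They summed to 311 to 348.5 CPM in 200H replicate 3 and 200M replicates 1 and 4, and to 5.75 to 24.0 CPM in the other 6 older libraries. Rab25 was at 9.28 CPM in that WT library against 0.365 to 0.903 CPM in the other 3, at 20.3 CPM in that 200H library against 0.184 to 2.53 CPM, and at 26.7 CPM in that 200M library against 0.599 to 3.06 CPM. Ap1m2 was highest in the same 3 libraries at 11.6, 23.8 and 32.7 CPM, where the others held 1.29 to 4.70 CPM. Epcam was at 52.9, 77.3 and 109 CPM in them and Tmc4 at 34.3, 61.4 and 91.2 CPM.
Older 200M replicate 2 departed from this for Tmc4, with 40.3 CPM at a marker sum of 24.0 CPM, and WT replicate 4 for Epcam, with 45.0 CPM at 5.83 CPM. In the young cohort the marker sum was 16.9 CPM in 200H replicate 1 and 20.9 CPM in 200M replicate 4, against 224 to 600 CPM in the other 10. These 2 libraries held the 2 lowest values of Epcam (3.04 and 2.53 CPM), of Rab25 (0.486 and 0.690 CPM), of Ap1m2 (1.70 and 1.26 CPM) and of Tmc4 (14.8 and 15.4 CPM). The part of oviduct tissue in the ovary values was not tested. Of the 2 young libraries with low sums, only 200M replicate 4 enters the comparison of 200M with WT. The fit without it is also 1 of those that left out 1 library. The young 200M log2 fold change was then −0.86 for Epcam (adjusted p = 0.0469, edgeR) and −0.90 for Lsr (adjusted p = 0.0727). In the older cohort WT replicate 1 and 200M replicate 3, each highest in these markers in its group, were left out together. The older 200M log2 fold change over WT was then −1.76 for Epcam (adjusted p = 0.105, edgeR) and −2.36 for Lsr (adjusted p = 0.000878).

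Luteal and ovarian surface epithelium markers are given beside Lsr. The 4 markers (Akr1c18, Lhcgr, Parm1 and Prlr) summed to 1649 to 7495 CPM in older WT, 3181 to 6545 CPM in older 200H and 280 to 1660 CPM in older 200M ovaries. In the young cohort they summed to 2783 to 4056 CPM in WT, 1364 to 2845 CPM in 200H and 1662 to 3855 CPM in 200M, and 1 and 3 of the 4 were called lowered in older and young 200M. Young 200M replicate 4, with the highest luteal sum of its group at 3855 CPM, held 11.4 CPM of Lsr. Older 200M replicate 3, with the lowest luteal sum at 280 CPM, held the most Lsr of its group. By contrast, older WT replicate 1, with the lowest luteal sum of its group at 1649 CPM, held the least Lsr there. The 5 surface epithelium markers (Upk3b, Krt19, Krt7, Lgals7 and Msln) summed to 253.5, 45.2, 513 and 166 CPM in older 200M replicates 1 to 4, in the same order as Lsr. In older WT replicates 1 to 4 they summed to 351, 225, 128 and 289 CPM. There the order of Lsr differed, since replicate 1, with the highest sum, held the least Lsr (72.7 CPM). In young 200M they summed to 73.1 CPM in replicate 2, the library highest in Lsr, and to 50.2 to 52.9 CPM in the other 3, against 65.7 to 86.2 CPM in young WT and 37.5 to 76.1 CPM in young 200H. Of the 5, 1 was called lowered in 200M of either cohort. The part of luteal or surface cells in the Lsr result was not tested.

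**Figure D3:**
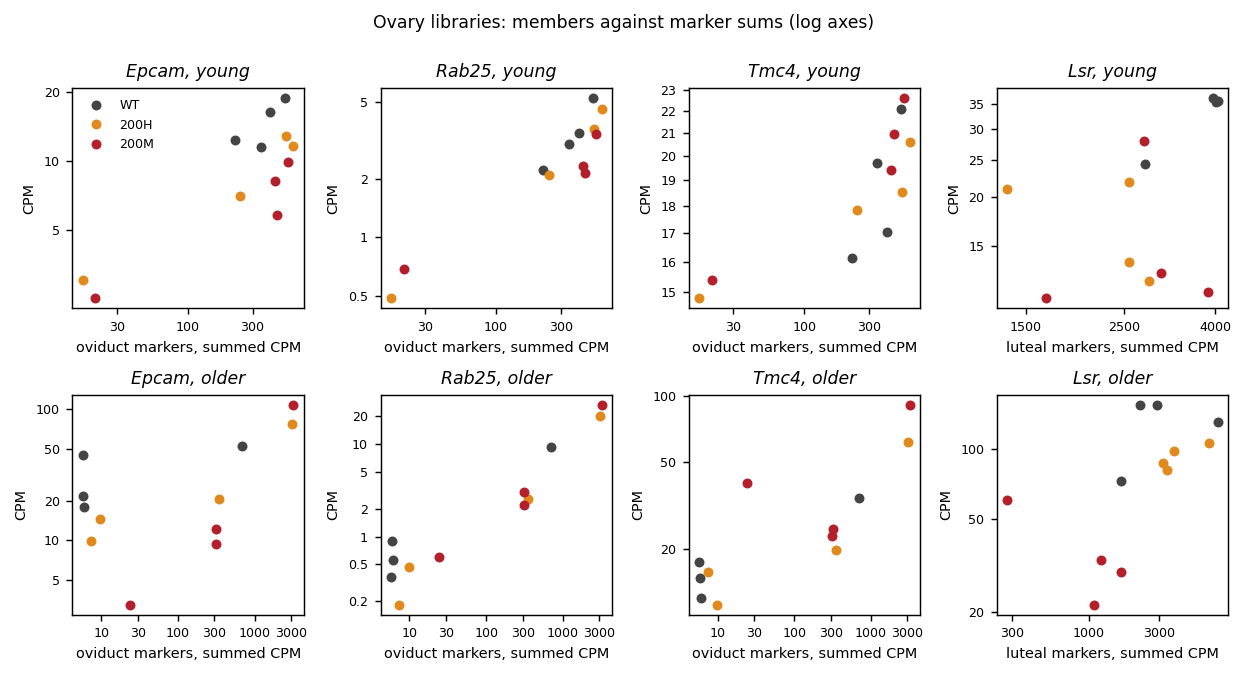
CPM of Epcam, Rab25 and Tmc4 against the summed CPM of 4 oviduct epithelium markers, and of Lsr against that of 4 luteal markers, in each ovary library (log axes; young above, older below; WT grey, 200H orange, 200M red). Older Rab25 rises from 0.184 to 26.7 CPM with the oviduct sum across all 3 genotypes, while older 200M libraries (red) lie lowest for Lsr.

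The relatives of the members by family, complex or pathway were 103 genes in 8 lists, and those with enough counts were tested in pituitary with edgeR. Of 85 tested in young 200M 34 were lowered and 8 raised, and of 87 in older 200M 38 and 9. Of all genes 10% were called lowered and 11.5% raised in young and 9.77% and 11.7% in older 200M. In 200H, with 87 tested in either cohort, 29 were lowered and 3 raised in the young cohort (all genes 5.72% and 6.56%), and 39 and 6 in the older cohort (5.14% and 7.09%). The list of other epithelial genes held most of the lowered ones, with 20 of 31 tested in young and 21 of 32 in older 200M lowered and 0 raised. The lists were drawn up with earlier results of these data known, so that their direction is not independent evidence.

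In the epithelial adhesion list, 5 of 9 tested genes were lowered in young and 6 of 9 in older 200M, with a list median of −0.65 and −0.71. The protease inhibitor Spint1, which guards the membrane protease matriptase, fell from 45.3 ± 0.996 to 10.4 ± 1.44 CPM in the young cohort (log2 fold change −2.13, SE 0.11, adjusted p = 8.24e-09) and likewise in the older cohort (−2.20, SE 0.15, adjusted p = 1.01e-06). Its sister inhibitor Spint2 fell too, at a log2 fold change of −1.40 in both cohorts, as did matriptase itself (St14), at −1.29 in young and −1.33 in older 200M. The adhesion receptor Cd44 (−2.01 and −1.99) and p120 catenin (Ctnnd1, −0.28 and −0.38) fell in young and older 200M. The tetraspanin Cd9 rose by 0.53 in both.

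Of 5 tricellular junction genes 3 were lowered and 1 raised in 200M of either cohort. The angulin Ildr1 fell in the young (−1.86 on the log2 scale, SE 0.11, adjusted p = 4.01e-08) and in the older cohort (−1.85, SE 0.16, adjusted p = 1e-05), while the angulin Ildr2 rose by 0.61 and 0.77. Tricellulin (Marveld2, −1.31 in both cohorts) and occludin (Ocln, −1.12 and −0.67) fell.

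The sorting and recycling families held calls in both directions. Of 7 AP-1 subunits 1 was lowered and 1 raised in young and 2 and 1 in older 200M, and of the Rab11 recycling genes 2 of 9 were lowered and 0 raised in young and 2 of 10 lowered and 2 raised in older 200M. Ap1m1, the subunit that all cells use where epithelia add Ap1m2, was not called (0.23 in young and −0.01 in older 200M, adjusted p = 0.0646 and 0.938). The small subunit Ap1s3 fell (−1.15 and −1.13) and Ap1s2 rose (0.40 and 0.79). Rab11a and Rab11b, the widely expressed GTPases related to Rab25, lay between −0.02 and 0.26, of which Rab11a in older 200M was called (0.26, SE 0.08, adjusted p = 0.0485). The Rab11 effector Rab11fip1 (−0.68 and −0.75) and the recycling motor Myo5b (−1.12 and −1.32) fell.

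In the families of the remaining members 1 of 4 tested TMC genes was lowered and 0 raised in 200M of either cohort. Of the calpains 1 was lowered and 3 raised of 10 tested in young and 2 and 2 of 11 in older 200M, and of the MAP7 and kinesin-1 genes 1 and 2 of 10 in young and 1 and 2 of 9 in older 200M. Of the transmembrane channel-like family Tmc6 fell (−0.99 and −0.62), Tmc7 was not called (0.05 and 0.86, adjusted p = 0.93 and 0.105) and Tmc5 was not tested, at 0.519 and 0.0697 CPM in 200M. Of the calpains Capn1 fell (−0.57 and −0.42) and Capn5 rose (0.53 and 0.71). Capn2, which neighbours Capn8 on chromosome 1, was at 0.23 in young (adjusted p = 0.0467) and 0.16 in older 200M (adjusted p = 0.175), and Capn9 was not tested. The Map7 relatives Map7d1 (0.41 and 0.51) and Map7d2 (0.60 and 0.36) rose, and Map7d3 was not called in the young cohort (0.45, SE 0.47, adjusted p = 0.563) and not tested in the older. The kinesin light chain Klc3 fell (−1.03 and −0.84). With scaling by total counts alone the number of relatives raised in 200M went from 8 to 14 in the young and from 9 to 18 in the older cohort.

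**Figure D4:**
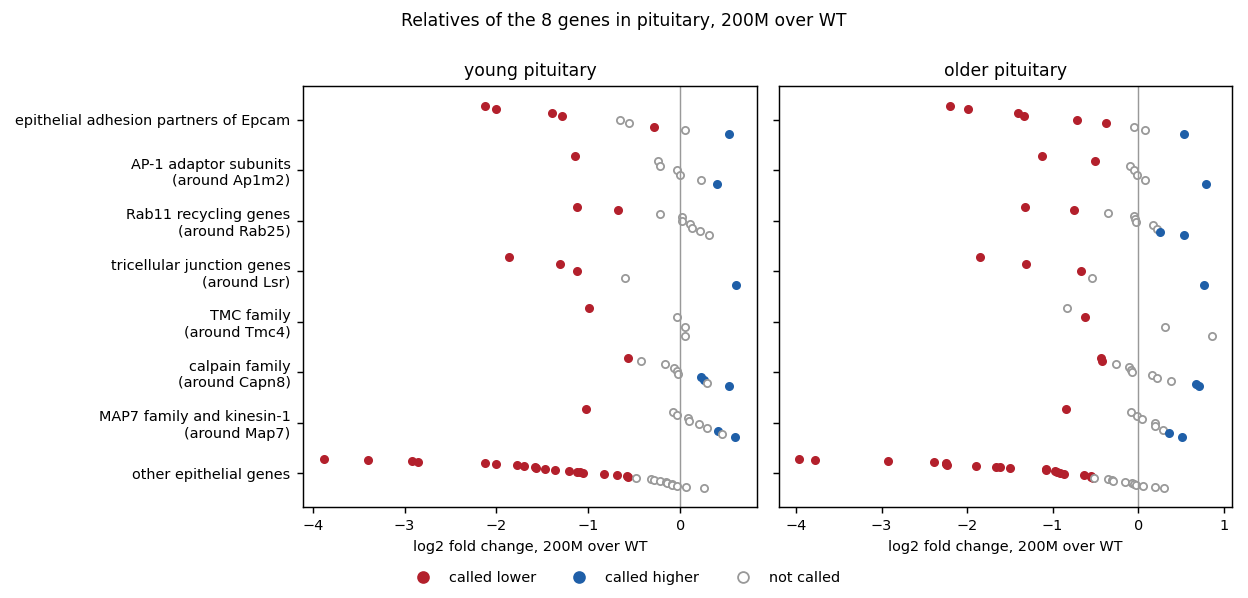
Log2 fold change (x axis) in 200M over WT of each tested relative in young (left) and older (right) pituitary, by list, with called lower in red, called higher in blue and not called in open grey. In 200M the list of other epithelial genes holds 20 (young) and 21 (older) called lower and 0 called higher, while each of the other lists but the TMC family holds calls in both directions in at least 1 cohort.

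Other epithelial genes lowered in 200M of both cohorts included the splicing regulators Esrp1 (−3.88 and −3.96) and Esrp2 (−1.57 and −2.25) and the transcription factor Ehf (−2.12 and −2.25). They included the keratins Krt7 (−2.92 and −3.78), Krt8 (−1.70 and −1.89) and Krt18 (−1.47 and −0.95) and the tight junction claudins Cldn3 (−1.12 and −0.91), Cldn4 (−1.06 and −1.5) and Cldn6 (−2.01 and −2.39). Of desmosome genes Dsg2 (−1.78 and −1.62), Pkp2 (−0.69 and −0.63), Pkp3 (−2.85 and −2.23) and Jup (−0.57 and −0.55) fell. The polarity genes Llgl2 (−1.58 and −1.66) and Crb3 (−3.40 and −2.92), the junction genes F11r (−0.83 and −0.87) and Tjp3 (−1.09 and −1.08) and the apical membrane gene Mal2 (−1.21 and −0.97) fell as well. The median of this list was −1.06 in young and −0.89 in older 200M.

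The nearest measured genes beside the members on the chromosome were compared with them, leaving out the members themselves and genes that overlap them, such as Tmc4 beside Leng1. Of 16 neighbour positions, which 15 genes fill because Mboat7 counts for both Tmc4 and Leng1, 1 was lowered, 4 raised and 11 not called in young 200M, and 3 were lowered, 2 raised and 11 not called in older 200M. The 1 lowered in both cohorts was Fam187b, whose end lies 326 bases beyond the upstream end of Lsr. It fell by 3.57 log2 units (SE 0.24, adjusted p = 1.13e-07) in young and by 3.95 (SE 0.30, adjusted p = 3.32e-06) in older 200M, beside log2 fold changes of −2.85 and −3.00 for Lsr. On its other side Usf2, 967 bases away, was at −0.07 (adjusted p = 0.786) and −0.36 (SE 0.12, adjusted p = 0.0444). Mboat7, 236 bases beyond the upstream end of Tmc4, was at 0.42 (SE 0.07, adjusted p = 0.000617) in young and 0.26 (adjusted p = 0.0552) in older 200M, opposite in sign to Tmc4. Mex3a, 633 bases from Rab25, lay at 0.30 (adjusted p = 0.218) and −0.16 (adjusted p = 0.526). Next to Epcam, Calm2 (189 kb away) rose by 0.27 and 0.40. Lamtor2, Cdkn2d, Slc44a2, Map3k5, 4933406P04Rik, Cnot3 and Mir3572 were not called where tested, Susd4 beside Capn8 rose in older 200M (0.72, adjusted p = 0.0051), and Gm15927 beside Leng1 fell there (−1.49, adjusted p = 0.00601).

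**Figure D5:**
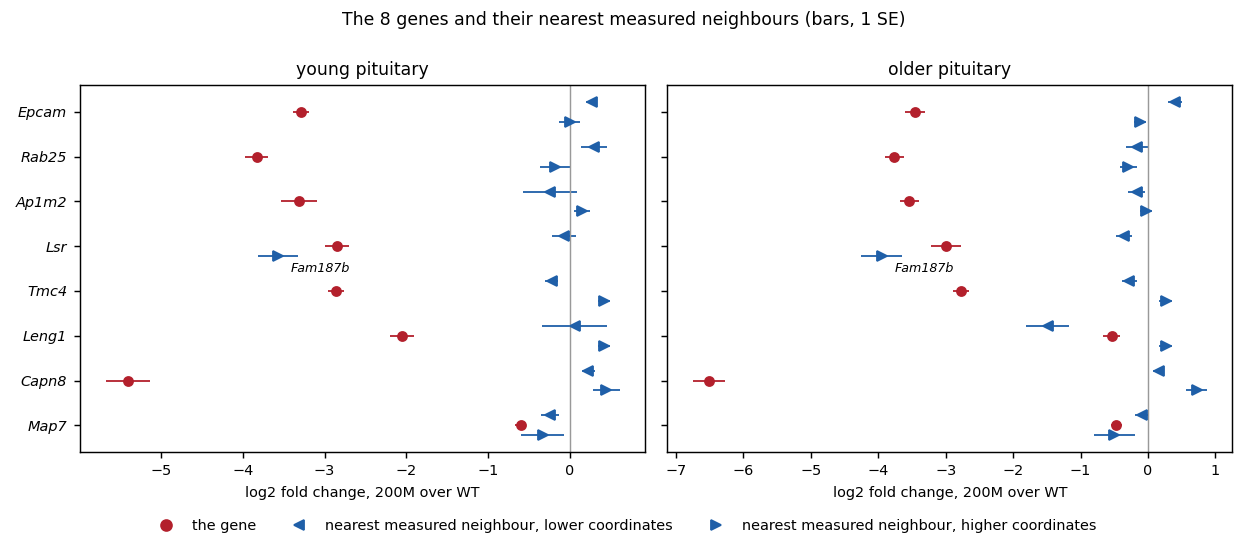
Log2 fold change in 200M over WT with 1 SE (x axis) of each of the 8 genes (red circles) and of its nearest measured neighbour at lower (left-pointing) and higher (right-pointing) coordinates, in young and older pituitary. Fam187b beside Lsr lies at −3.57 and −3.95, near the red points, while most other neighbours lie within 0.5 of 0.

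The genes whose 4 pituitary log2 fold changes over WT lay nearest to the median of the members were taken from 13921 genes, by the mean absolute difference over the 4 comparisons. In order they were Tmem184a (0.18 log2 units away), Gm13648 (0.218), Tnk1 (0.269), Fgd2 (0.283), F2rl1 (0.291), Tmem102 (0.303), Tspan1 (0.305), Ffar4 (0.329), Crb3 (0.343) and Plet1 (0.404). Tmem184a, a multi-pass membrane protein, was at −3.27 and −2.29 in young 200M and 200H and at −2.93 and −2.51 in the older cohort, from a WT mean of 51.5 and 51.2 CPM. Gm13648, which the study counted as the primary transcript of the miR-200b to miR-429 cluster, was at −2.79, −2.40, −2.91 and −2.49 in that order. F2rl1, the protease-activated receptor cleaved by matriptase, was at −2.74, −2.85, −3.02 and −2.79 in the same order. Crb3, an apical polarity gene, was at −3.40, −1.61, −2.92 and −2.71.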

How the data were processed

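RNA was sequenced from 69 libraries, and the authors deposited 18 tables of raw counts per gene, 1 for each pair of genotypes in a tissue and cohort. Per the labels and the study's methods, the authors aligned reads with STAR 2.7.1a to mm10 (GRCm38). Older libraries were poly(A)-selected and counted without strand, by htseq-count 0.9.1 in pituitary and hypothalamus and by featureCounts in ovary, and young libraries were ribosomal-RNA-depleted, stranded and counted by featureCounts on the reverse strand. The tables also hold the log2 fold changes and p-values of the authors' DESeq2 tests, which were not used. The annotation differed between tables, and 3 WT columns of 1 table were left out, since a repeated name in its header does not tell its columns apart. Of the 3 young WT pituitary columns used, 1 bears a replicate number found in no sample title. It was kept as a library of its group and left out of fits that match replicate numbers. Gene symbols were taken from the deposited table that pairs them with IDs and, where it gave none, from a reference list of gene names. Together these sources named 99.54% of 55964 IDs.

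All genes were fitted in R 4.3.3 with edgeR 4.0.16 (limma 3.58.1), whose quasi-likelihood test was run on the counts of the genes kept by filterByExpr, with TMM scaling, each pair of genotypes by itself, and Benjamini-Hochberg adjustment over all genes. A gene was called at an adjusted p under 0.05. The SE was obtained from the F statistic as log2 fold change / √F. The fits were tested on simulated data. CPM used TMM factors over a tissue and cohort, exon lengths and neighbours came from GENCODE M21 on GRCm38, and an annotation other than that of the counts can shift lengths. Capn8 ratios carry exact binomial intervals, which cover counting error only. Among 99 pairs of libraries within a group the lowest chi-square per degree of freedom was 1.87, so none was a copy of another. Replicates are different mice.

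The members and lists were chosen with earlier results of these data known. Named were all members, relatives called in 200M against WT in both cohorts, the closest family members, the nearest tested neighbours and the 10 most similar genes. Some of the genes this rule names are not reported here. Alternatives were other scalings (RLE, total counts), no filter, DESeq2 1.42.0, leaving out each library, 3 genotypes in 1 fit, the replicate number as a block, promoter windows without the bases after the start, and Euclidean distance. 2 more, which leave out the ovary libraries with extreme oviduct marker sums, were chosen after seeing the data.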

Additional observations from a re-analysis of the deposited data

Results flagged for a closer look

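Over 120 combinations of a gene with a group of 4 libraries, 1 library stood far from the other 3 in 14, where chance gives about 1 in 20. The combinations share libraries and are not independent, and 9 of the 14 come from 3 older ovary libraries with high oviduct epithelium marker sums (696 CPM in WT replicate 1, 3086 CPM in 200H replicate 4 and 3215 CPM in 200M replicate 3). Rab25 stood apart in all 3, at 9.282 CPM against 0.365 to 0.903 CPM in the other WT libraries, at 20.28 CPM against 0.1843 to 2.53 CPM in 200H and at 26.7 CPM against 0.5993 to 3.058 CPM in 200M. Ap1m2 was at 11.56 CPM against 2.402 to 2.829 CPM in WT, at 23.76 CPM against 1.29 to 3.282 CPM in 200H and at 32.68 CPM against 3.116 to 4.696 CPM in 200M. Epcam was at 77.31 CPM in that 200H library against 9.954 to 20.85 CPM and at 108.8 CPM in that 200M library against 3.236 to 12.12 CPM. Capn8 was at 0.9372 CPM in the same 200H library, from 14 counts, against 0.3418 to 0.3777 CPM. The part of oviduct tissue in these values was not tested.

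The other libraries that stood apart held Leng1 or Lsr. Leng1 was at 55.25 CPM in older 200M ovary replicate 2 against 27.3 to 31.27 CPM in the other 3, at 8.262 CPM in young 200M ovary replicate 3 against 6.321 to 6.475 CPM, and at 7.967 CPM in young WT ovary replicate 2 against 5.022 to 5.434 CPM. Lsr was at 24.41 CPM in young WT ovary replicate 2, below the other WT ovaries at 35.36 to 36.18 CPM, and at 27.99 CPM in young 200M ovary replicate 2, above the other 200M ovaries at 10.97 to 12.71 CPM. Without 200M replicate 2 the log2 fold change of Lsr in young 200M ovary was −1.47 (adjusted p = 1.66e-05, edgeR), and −1.14 (adjusted p = 0.035) when WT replicate 2 was left out.

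For 2 genes every library moved one way in pituitary and the other way in hypothalamus. Lsr in young 200M was below 200H in pituitary (log2 fold change −0.83) and above it in hypothalamus (0.81). Leng1 in older 200M was below WT in pituitary (−0.54) and above it in hypothalamus (0.25). The difference between the tissues was not tested, and neither hypothalamus value was called.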

How the results depend on the processing

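Across the alternatives 1056 of the log2 fold changes of the members in hypothalamus, ovary and WT tissues kept their direction and side of the threshold, 16 gained a call, 17 lost one and 7 changed sign. A change of sign with no call and both values within 1 SE of 0 was not counted. The young ovary fits of a mutant against WT without the libraries lowest in oviduct markers repeat fits that left out 1 library. Their values enter this tally again. In pituitary 659 values moved by less than the spread between replicates and 20 by more. Scaling by total counts alone moved the median of the members to −2.53 in older and −2.21 in young 200H pituitary, and the relatives called higher to 12 in older 200H, 18 in older 200M, 8 in young 200H and 14 in young 200M. Under that scaling Tmc4 in WT ovary against hypothalamus was at 0.16, where the median of all genes went from 0.09 to 0.35. DESeq2 called 5 relatives higher in young 200M, and leaving out 1 library gave 2 to 5 in young 200H.

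The number of members called was 1 in older hypothalamus 200M against 200H and in older ovary 200M against 200H, and 2 in young ovary in both comparisons with WT, when no filter was used. Of all genes the fits without a filter called 1079 in place of 1 in older hypothalamus 200M against WT, 1325 in place of 0 in older hypothalamus 200M against 200H, 845 in place of 497 in young ovary 200M against WT and 241 in place of 1 in young ovary 200H against WT. With DESeq2 it was 1 in older ovary 200M against 200H (877 of 36955 genes called) and in young ovary 200H against WT (76 of 51564). With 3 genotypes in 1 fit it was 1 in older ovary 200M against 200H (402 of 18473 genes called) and 0 in young ovary 200M against WT (109 of 20347). Without the 3 libraries highest in oviduct markers, an alternative chosen after seeing the data, it was 1 in older ovary 200M against 200H (260 of 17637 genes called). Of those libraries, 200H replicate 4 and 200M replicate 3 enter that comparison. Leaving out 1 library gave 0 to 1 in older ovary 200M against WT and against 200H, 0 to 2 in young ovary 200M against WT and 3 to 6 in WT ovary against hypothalamus, where Epcam, Rab25 and Ap1m2 entered only through their ovary counts. The counts over all genes in the fits without 1 library are not reported here.

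The sign changes in ovary came when 1 library was left out, and for Epcam also when the libraries highest in oviduct markers were left out together. Without 200M replicate 3 the older 200M values were −0.48 for Rab25 (range over libraries left out −0.48 to 3.71) and −0.24 for Ap1m2 (−0.24 to 2.09) against WT, and −1.60 for Rab25 (−1.60 to 2.87) and −1.90 for Epcam (−1.90 to 1.12) against 200H. Epcam against 200H was −0.87 without both 200H replicate 4 and 200M replicate 3, the libraries of that comparison highest in oviduct markers. Without 200H replicate 4 the value of Ap1m2 in older 200H against WT was −1.12 (−1.12 to 1.56).

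Deviations of libraries with the same replicate number had correlations of both signs (from −0.482 to 0.453). Libraries with different numbers were not correlated for reference, so this cannot show whether the numbers pair mice. With the replicate block the members called were 0 in older and in young ovary 200M against WT, where 101 and 150 of all genes were called. The relatives raised were 1 in young 200H and 4 in young 200M pituitary. In young pituitary only 2 numbers are shared with WT. The causes were not tested, beyond the fewer libraries of those fits. Depth limits Epcam, Rab25, Ap1m2 and Capn8 in young hypothalamus, where no library held more than 8 counts of any of them.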
